A study of Homo sapiens with 9 samples.

Results

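Genes of sugar breakdown and of the response to low oxygen were followed in HEK293, a human embryonic kidney line, while it made normal or mutant surfactant protein C. The genes are 40 named enzymes, transporters, hypoxia targets and hypoxia regulators, set as a list of names. A gene was read from a probe set, the group of short probes on the array that reports 1 transcript, when the platform annotation named that gene alone. Where several probe sets did so, the brightest over the 9 arrays was used. This gave values for 39 of the 40 genes, out of 19775 genes with such a probe set in the whole table. CA9, a carbonic anhydrase, was not analysed here. All 39 passed the filter on low values, along with 14018 genes in all. The 40 genes had 93 probe sets of their own among 54613 non-control probe sets, and 79 of them were among the 32768 tested. A further 2 probe sets that name a member together with another gene were left out.

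The cells were transiently transfected with the L188Q mutant of SP-C (LQ), the delta exon 4 mutant (Ex4) or wild-type SP-C (WT), with 3 Affymetrix arrays per group. All groups thus share the HEK293 line and an SP-C transgene, and no untransfected group was analysed here. HEK293 is 1 transformed line and not the alveolar type II cell that makes SP-C in the lung. Nothing in the labels says that the 3 arrays of a group came from separate cultures. The p-values therefore reflect array-to-array spread alone, part or all of which may be technical. Values are linear MAS5 intensities, and changes and tests are on log2(intensity + 16), a scale that understates the change of dim genes. A gene passed the test when its adjusted p was under 0.05 (limma, Benjamini-Hochberg over all 32768 probe sets within a comparison, two-sided). The LQ and Ex4 comparisons use the same WT arrays, so their values are given side by side and do not support each other.

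Glycolysis splits glucose into pyruvate, and lactate dehydrogenase turns pyruvate into lactate when mitochondria do not take it up. In normal oxygen the prolyl hydroxylases, encoded by EGLN genes, mark the HIF alpha subunits for destruction through the VHL ubiquitin ligase. In low oxygen HIF alpha escapes, pairs with ARNT and raises transcription of glucose transporters, glycolytic enzymes, VEGFA and carbonic anhydrases. HIF alpha is governed mainly as a protein, so its transcript level is not a measure of its activity.

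Promoters are shown for the genes that passed the test in LQ against WT and, for comparison, for LDHA, a long-known HIF target. Each runs from 250 bases before to 50 bases after an annotated start, 5′ to 3′ on the gene's strand, and comes from RefSeq on GRCh38.p14. Capitals mark the core letters of a hypoxia response element, searched as ACGTG or GCGTG on both strands, so that CACGT and CACGC are the same letters on the other strand. CACGTG holds ACGTG on both strands and is also the E-box of other factors. The regions are chr17:28576846-28577145 on the minus strand for ALDOC, chr15:63381797-63382096 on the minus strand for CA12, chr2:86441121-86441420 on the plus strand for KDM3A and chr11:18394313-18394612 on the plus strand for LDHA.
ALDOC: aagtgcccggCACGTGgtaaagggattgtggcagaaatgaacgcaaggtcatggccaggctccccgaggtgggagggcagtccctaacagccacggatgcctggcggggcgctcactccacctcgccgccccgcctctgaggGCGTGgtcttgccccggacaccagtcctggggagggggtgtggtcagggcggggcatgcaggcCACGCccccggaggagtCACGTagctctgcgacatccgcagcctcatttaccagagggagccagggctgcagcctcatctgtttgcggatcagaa
CA12: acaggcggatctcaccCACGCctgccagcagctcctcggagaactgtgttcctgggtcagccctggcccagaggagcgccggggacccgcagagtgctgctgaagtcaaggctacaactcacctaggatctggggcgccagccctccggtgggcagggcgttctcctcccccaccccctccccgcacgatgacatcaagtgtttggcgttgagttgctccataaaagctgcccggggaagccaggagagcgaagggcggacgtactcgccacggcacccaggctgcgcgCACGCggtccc
KDM3A: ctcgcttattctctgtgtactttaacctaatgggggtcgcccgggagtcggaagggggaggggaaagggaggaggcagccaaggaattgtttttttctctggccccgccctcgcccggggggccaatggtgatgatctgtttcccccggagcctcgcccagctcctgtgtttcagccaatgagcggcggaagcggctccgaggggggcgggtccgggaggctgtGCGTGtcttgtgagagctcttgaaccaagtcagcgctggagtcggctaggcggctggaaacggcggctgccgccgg
LDHA: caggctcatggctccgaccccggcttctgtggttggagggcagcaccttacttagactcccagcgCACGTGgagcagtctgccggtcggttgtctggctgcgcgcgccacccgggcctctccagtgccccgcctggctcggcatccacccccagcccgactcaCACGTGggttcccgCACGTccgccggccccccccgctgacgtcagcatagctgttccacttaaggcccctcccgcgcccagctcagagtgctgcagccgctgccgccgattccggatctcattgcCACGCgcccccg

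With each CACGTG counted on both strands, the ALDOC window held 5 such matches, of which 3 were ACGTG. The LDHA window, counted in the same way, held 6, of which 5 were ACGTG. CA12 had 2 matches and KDM3A had 1, all of them GCGTG. LDHA has another annotated promoter, not shown, which held 1 match, a GCGTG. Another KDM3A promoter overlaps the one shown and holds the same match. RefSeq entries matched 35 of the 40 genes, with 61 promoters. Either motif was present in 41 of the 61 (67.2%), against 48.4% of 35116 promoters of the same length. ACGTG alone was in 39.3% of the member promoters and 21.4% of all promoters. Some genes, such as HK1 and PFKM, have several promoters. Counted by gene, 31 of the 35 (88.6%) had either motif in any promoter, against 52.4% of 27305 genes. For ACGTG the shares by gene were 57.1% and 24.9%. The member promoters were also richer in G and C, with a median of 69.0% against 58.7%, and the part of base composition in the motif shares was not tested. A match is only a run of letters, not a shown binding site.

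Several measures of the arrays themselves moved with the groups. The median intensity was 303.9 to 371.8 on LQ arrays, 316.1 to 434.3 on Ex4 arrays and 506.4 to 524.4 on WT arrays, while trimmed means lay between 1493.3 and 1494.9 on all 9. On the log2 scale the median was 0.58 lower in LQ and 0.49 lower in Ex4 than in WT (two-sided exact permutation p = 0.1 each, the smallest that 3 against 3 arrays allow; adjusted p = 0.2 over 6 tests). The 3′ to 5′ signal ratio of the GAPDH control sets, a sign of RNA integrity, was 1.07 ± 0.016 in LQ, 1.12 ± 0.143 in Ex4 and 1.31 ± 0.113 in WT (SD, n = 3 each; exact permutation p = 0.1 and 0.2, adjusted p = 0.2 and 0.24). The same ratio for ACTB was 1.18 in LQ, 1.35 in Ex4 and 1.13 in WT. Ex4 replicate 1 had a mean correlation across probe sets of 0.927 with the LQ arrays, 0.906 with the other Ex4 arrays and 0.911 with the WT arrays. The other two Ex4 arrays had 0.948 and 0.941 with LQ, 0.926 and 0.927 within Ex4, and 0.871 and 0.864 with WT. WT replicate 1 had 0.907 with the LQ arrays and 0.892 with the other WT arrays. The transfected gene, SFTPC, was bright in every group on the probe set with the highest mean, at 108962.6 to 132057.7 in LQ, 97629.7 to 169241.4 in Ex4 and 173159.7 to 261955.2 in WT. On another of its probe sets it read 914.4, 39.1 and 28.7 in Ex4, with 914.4 on replicate 1, against 158962 to 239964 in WT. Summed HEK293 line markers (KRT8, KRT18, VIM, NEFL, NEFM and NES) came to 132576.9 to 146298.6 in LQ, 128827.6 to 134267.8 in Ex4 and 134445.5 to 176245.3 in WT. The 5 blood markers summed to 1314.9 to 1555.2 in LQ, 1537.9 to 1671.1 in Ex4 and 2318.6 to 2974.6 in WT, with 3 or 4 of them below the array median everywhere. The 5 fibroblast markers summed to 3183.2 to 4274.3 in LQ, 4465.8 to 5985.2 in Ex4 and 6434.6 to 7642.7 in WT, and the 4 endothelial markers to 783.3 to 1740.1 in LQ, 609.3 to 1847.9 in Ex4 and 1693.8 to 2348.2 in WT. The 5 measured alveolar type II markers other than SFTPC summed to 3593.4 to 4651.5 in LQ, 3264.8 to 3927.1 in Ex4 and 3358.2 to 5523.2 in WT. The part of these array and marker differences in the results was not tested.

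The set did not move as a block in either mutant. In LQ against WT, 1 of the 39 genes rose (KDM3A) and 2 fell (ALDOC and CA12), while 3.69% of all genes tested rose and 3.63% fell. The median log2 change of the 39 was -0.07, against -0.09 over all 14018 genes, and 17 of the 39 were above 0. In Ex4 against WT none of the 39 passed the test (limma), and 0% of all genes passed upward and 0% downward. There 10 of the 39 had an unadjusted p under 0.05, as did 27.2% of all genes, and the median was -0.16 against -0.08 over all genes. In terms of whole groups, 3 genes had all LQ arrays above all WT arrays (15.7% of all genes) and 11 had them all below (23.2%). For Ex4 against WT, 4 lay above (9.07%) and 6 below (14.9%). Most of the genes are bright, with 23 among the brightest 4673 genes tested. In that range the median change over all genes was 0.15 in LQ and 0.12 in Ex4, and over the 23 it was -0.07 in LQ and -0.16 in Ex4, a description with no test. Among the dimmest 4673 genes the median was -0.6 in LQ and -0.53 in Ex4, and in LQ 5.78% of them fell and 0.385% rose. The 6 members in that range, with medians of -0.73 in LQ and -0.65 in Ex4, were ALDOC, CA12, VHL, EGLN3, PFKFB4 and ANKRD37. The falls of ALDOC and CA12 thus stand beside a general fall of dim genes, whose part was not tested.

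Which arrays were used decided the calls. ALDOC, CA12 and KDM3A each passed in 4 of the 9 fits that left out an array, namely those without an Ex4 array or without WT replicate 1, and none passed without any 1 LQ array, WT replicate 2 or WT replicate 3. This loss was general, since 0.0214% to 0.15% of all genes passed in those 5 fits, against 7.32% with all arrays. Their log2 changes stayed between -1.44 and -1.18 for ALDOC, between -1.41 and -1.04 for CA12 and between 0.73 and 0.98 for KDM3A, with adjusted p up to 0.14, 0.12 and 0.14 (limma). Without WT replicate 1, 2 genes rose and 9 fell in LQ against WT, with 17.8% of all genes called. Without Ex4 replicate 1, 9 of the 39 passed in Ex4 against WT, with 13.8% of all genes called. Of these PDK1, BNIP3L, KDM3A and HIF1A were higher and SLC2A1, PFKM, ALDOC, EPAS1 and VHL lower in Ex4. The rises of PDK1, BNIP3L and KDM3A rest on the brightest probe set. With all 9 arrays and the probe sets of each gene averaged, they had -0.07, -0.01 and -0.01 in Ex4. In that fit HIF1A had 0.85, and the genes named as lower had -1.22 to -0.61.

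**Figure D1:**
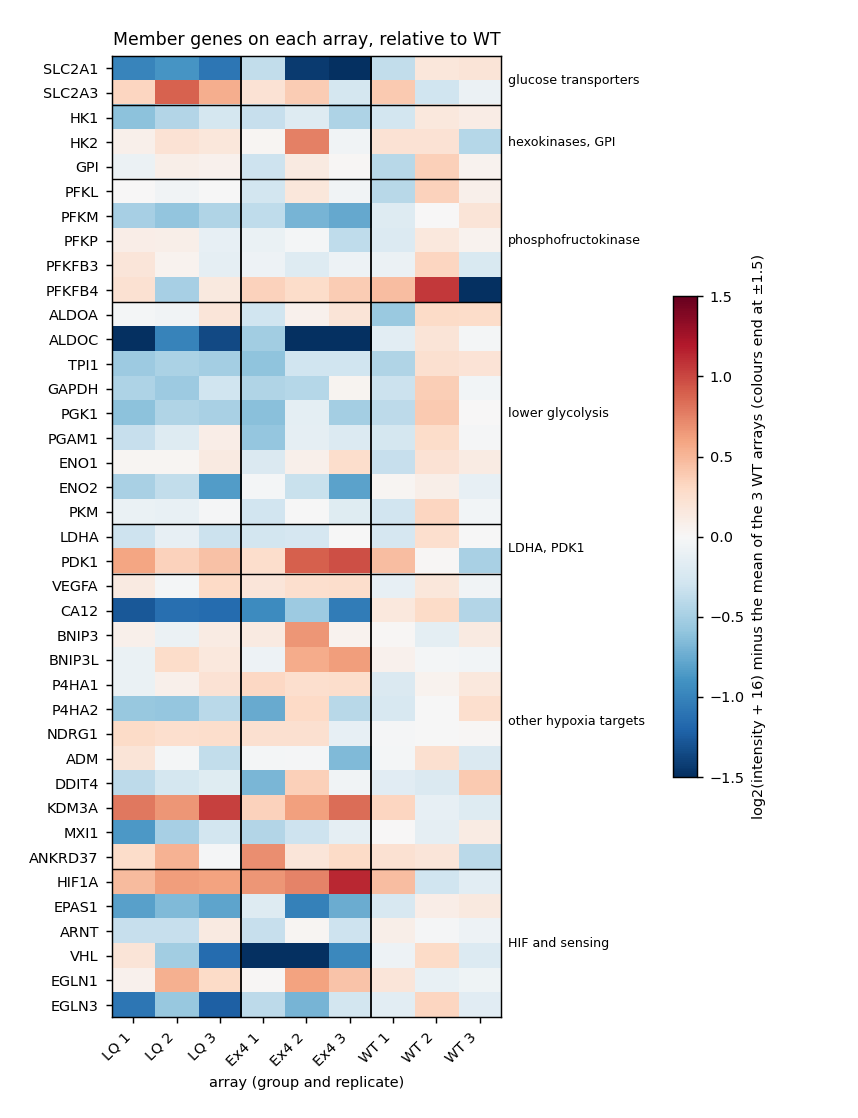
Heat map of log2(intensity + 16) for the 39 genes on each array, minus the mean of the 3 WT arrays, with rows ordered by role and LQ, Ex4 and WT arrays from left to right. Red is higher and blue lower than WT, with colours ending at ±1.5. SLC2A1, ALDOC, CA12 and EPAS1 are blue and KDM3A and HIF1A red across the LQ and Ex4 arrays, and the WT arrays differ among themselves in the lower glycolysis rows.

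**Figure D2:**
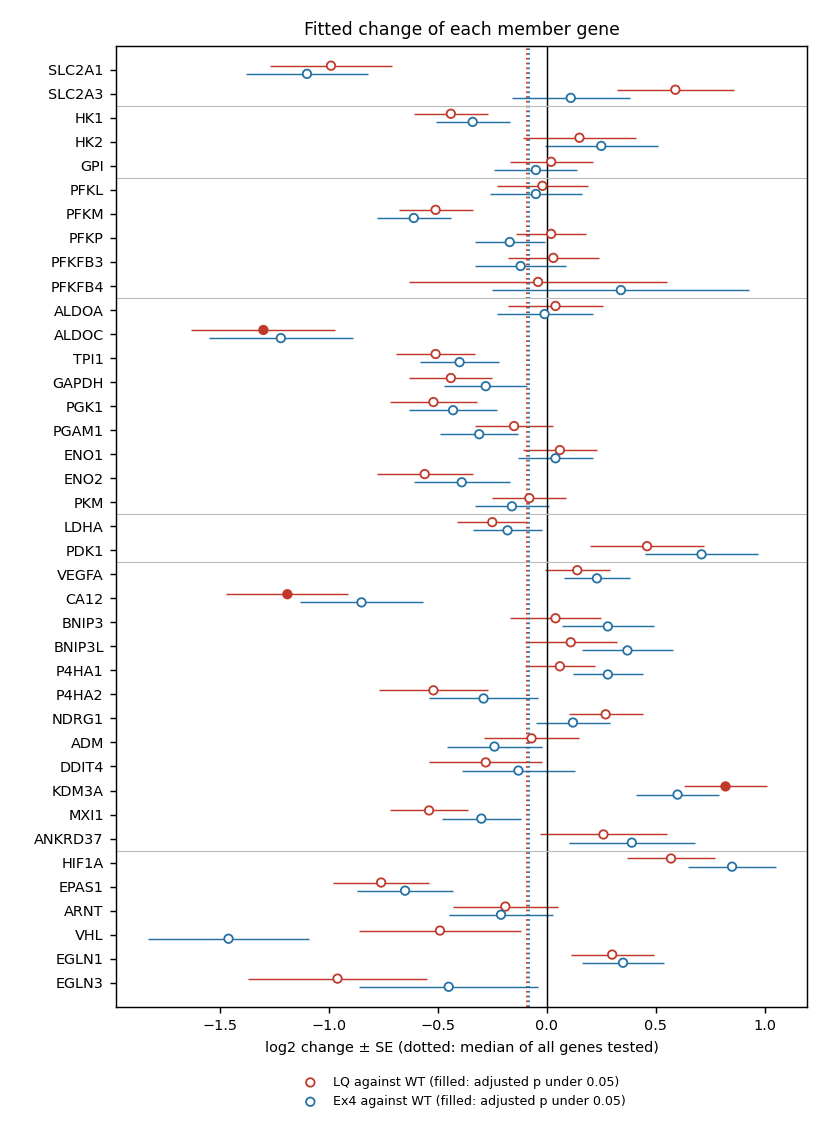
Fitted log2 change of each gene with its standard error, in LQ against WT (red) and Ex4 against WT (blue), in the same order of genes. Filled points passed the test, which in these data are ALDOC, CA12 and KDM3A in LQ, and dotted lines give the median of all genes tested (-0.09 and -0.08).

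Glucose enters these cells through facilitative transporters. SLC2A1, the widespread transporter GLUT1, had 2482.2, 2667.6 and 2328.1 intensity units on the LQ arrays, 3816.7, 1822.5 and 1751.8 on the Ex4 arrays, and 3846, 5559.8 and 5682.2 on the WT arrays. Every LQ and Ex4 array was below every WT array, and Ex4 replicate 1 was nearly level with WT replicate 1. The log2 change was -0.99 ± 0.28 (SE) in LQ (adjusted p = 0.055, limma) and -1.10 ± 0.28 in Ex4 (adjusted p = 0.081), so neither passed. Without Ex4 replicate 1 or without WT replicate 1 both passed, with the LQ value between -1.17 and -0.89 over all fits that leave out an array. Its second probe set gave -0.92 in LQ. SLC2A3, the high-affinity transporter GLUT3, had 1297.9, 1920 and 1513.4 in LQ, 1199.8, 1345 and 854.3 in Ex4, and 1356, 833.9 and 971.5 in WT. Its groups overlap, with WT replicate 1 above the lowest LQ array, and the change was 0.59 ± 0.27 in LQ and 0.11 ± 0.27 in Ex4 (adjusted p = 0.18 and 0.84).

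Hexokinases trap glucose in the cell and GPI, the isomerase, carries it to the next step. HK2, the inducible hexokinase, had 1644.5, 1818 and 1759.3 in LQ, 1603, 2645.1 and 1511.4 in Ex4, and 1814, 1820.1 and 1159.5 in WT, with overlapping groups. Its change was 0.15 ± 0.26 in LQ and 0.25 ± 0.26 in Ex4 (adjusted p = 0.73 and 0.59). HK1, the housekeeping hexokinase, averaged 6053.6 ± 745.5 in LQ, 6480.1 ± 606.3 in Ex4 and 8232.6 ± 1295.3 in WT (SD, n = 3 each), and did not pass. GPI had 0.02 ± 0.19 in LQ and -0.05 ± 0.19 in Ex4.

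Phosphofructokinase commits sugar to glycolysis, and the PFKFB enzymes make and break down its activator. None of its 5 genes passed in either mutant (7.32% of all genes in LQ and 0% in Ex4). PFKM, the muscle subunit, averaged 4931.1 ± 235.9 in LQ, 4634.9 ± 681.8 in Ex4 and 7083.6 ± 952.8 in WT (SD, n = 3 each), with both mutants below every WT array. Its change was -0.51 ± 0.17 in LQ and -0.61 ± 0.17 in Ex4 (adjusted p = 0.08 and 0.087). The liver and platelet subunits did not follow it, since PFKL had -0.02 in LQ and -0.05 in Ex4, and PFKP had 0.02 in LQ and -0.17 in Ex4. PFKFB4 had 381.6, 224 and 357.7 in LQ, 414.7, 393.5 and 424.9 in Ex4, and 451.8, 688.9 and 101.3 in WT. Its WT arrays spanned all of the others, it lay below the array median on 1 LQ, 1 Ex4 and 2 WT arrays, and its changes of -0.04 ± 0.59 in LQ and 0.34 ± 0.59 in Ex4 are the least certain of the set.

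The later steps of the pathway, from the aldolases to pyruvate kinase, have 9 of the genes. ALDOC alone fell in LQ (3.63% of all genes), and none passed in Ex4 (0% of all genes). The median change was -0.44 in LQ and -0.31 in Ex4, with 7 of the 9 below 0 in LQ and 8 in Ex4. Of all genes tested, 43.6% were above 0 in each comparison. The direction depended on the scaling. Under quantile normalization 7 of the 9 were below 0 in LQ and 8 in Ex4, with medians of -0.12 and -0.32. With the arrays centred on their medians, 8 of the 9 were above 0 in each mutant, with medians of 0.14 in LQ and 0.18 in Ex4. Centring shifts every gene of a comparison by the same amount. It took the median of all genes to 0.49 in LQ and 0.41 in Ex4. That all-gene median was -0.09 in LQ and -0.08 in Ex4 as deposited, and 0 and -0.01 after quantile normalization. Under each scaling the median of the 9 lay below it. ALDOC, the brain-type aldolase, had 453.2, 655.6 and 511.7 in LQ, 923.1, 425.1 and 453.4 in Ex4, and 1192.7, 1522.1 and 1307.7 in WT. All mutant arrays were below all WT arrays, and Ex4 replicate 1 was the nearest to WT. ALDOC fell by 1.30 ± 0.33 on the log2 scale in LQ, or 0.407-fold (adjusted p = 0.043), and had -1.22 ± 0.33 in Ex4 (adjusted p = 0.086). ALDOA, the aldolase of muscle and most cells, had 0.04 ± 0.22 in LQ and -0.01 ± 0.22 in Ex4.

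GAPDH, which makes the first reduced cofactor of the pathway, had 85976.7, 81234.6 and 96453.4 in LQ, 86603.7, 88397.7 and 122513.3 in Ex4, and 94681.4, 152907.8 and 115759.4 in WT. Its groups overlap, and the change was -0.44 ± 0.19 in LQ and -0.28 ± 0.19 in Ex4 (adjusted p = 0.16 and 0.39). PGK1, the first enzyme to yield ATP, had 32225.5, 36103.4 and 35370.4 in LQ, 31939.1, 44532 and 34785.5 in Ex4, and 37601.8, 64768.8 and 49448.9 in WT. All LQ arrays were below all WT arrays but close to WT replicate 1, and the change was -0.52 ± 0.20 in LQ and -0.43 ± 0.20 in Ex4 (adjusted p = 0.11 and 0.2). TPI1, the triose isomerase, had -0.51 in LQ and -0.40 in Ex4, and ENO2, the neuronal enolase, -0.56 in LQ and -0.39 in Ex4, without passing. ENO1, the common enolase, PGAM1 and PKM had changes between -0.15 and 0.06 in LQ and between -0.31 and 0.04 in Ex4. Several of these genes have processed pseudogenes of near-identical sequence, and the chosen sets of GAPDH, TPI1 and ALDOA are of the kind whose probes Affymetrix marks as shared with other transcripts.

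The WT arrays themselves disagreed on these enzymes. WT replicate 1 was the lowest WT array for 8 of the 9 genes (against 43.1% of all genes tested) and WT replicate 2 was the highest for all 9 (against 34.8%). Without WT replicate 1, TPI1, GAPDH and PGK1 passed as lower in LQ, and without WT replicate 2 none of the 39 genes passed. Ex4 replicate 1 was the lowest Ex4 array for 7 of the 9 (against 37.8% of all genes).

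**Figure D3:**
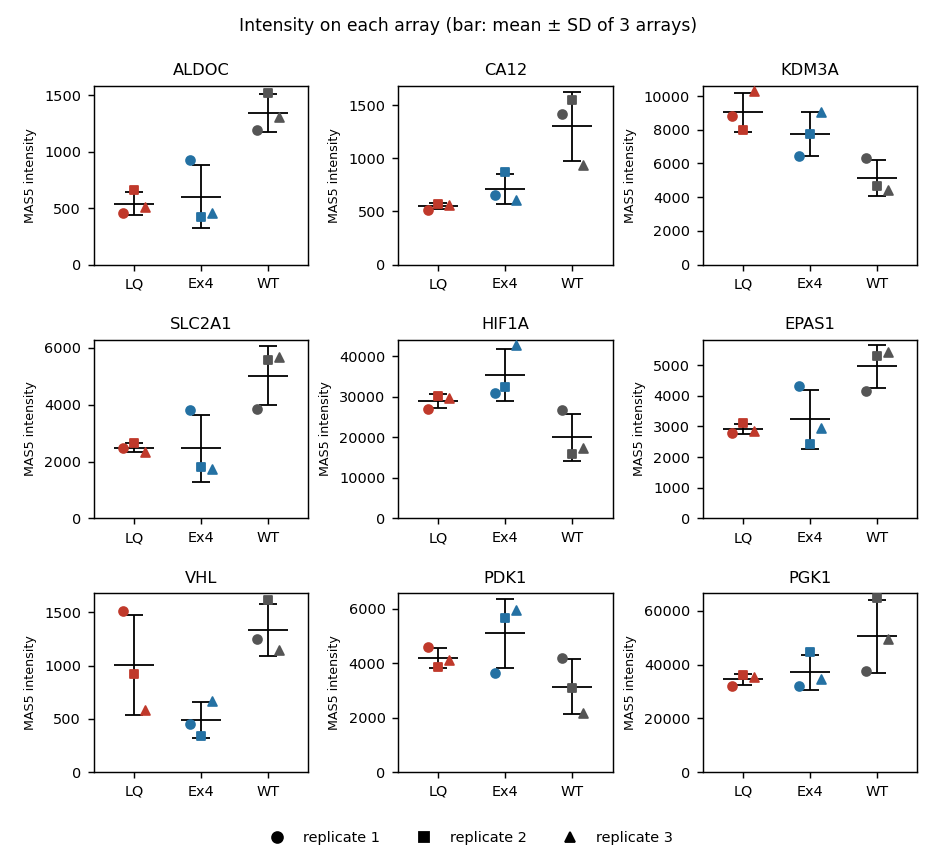
Intensity of 9 genes on each array, with LQ, Ex4 and WT from left to right, linear axes from 0, symbols for replicates 1 to 3, and bars for the mean ± SD of 3 arrays. The LQ and Ex4 arrays lie below all WT arrays for ALDOC, CA12 and SLC2A1 and above all WT arrays for KDM3A and HIF1A, while PDK1 overlaps in both mutants and PGK1 in Ex4.

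At the branch point, LDHA makes lactate and PDK1 shuts pyruvate out of mitochondria. LDHA had 52181.7, 59534.4 and 51957.4 in LQ, 53793.6, 54317.4 and 64880.8 in Ex4, and 54523.8, 77527.5 and 64658.6 in WT. Its groups overlap, and its change was -0.25 ± 0.16 in LQ and -0.18 ± 0.16 in Ex4 (adjusted p = 0.3 and 0.51). PDK1 had 4602.6, 3850 and 4134.7 in LQ, 3664.2, 5676.7 and 5969.7 in Ex4, and 4209.6, 3079.6 and 2160.4 in WT. WT replicate 1 lay inside the mutant range, and the change was 0.46 ± 0.26 in LQ and 0.71 ± 0.26 in Ex4 (adjusted p = 0.25 and 0.13). Its 2 dimmer probe sets pointed the other way in LQ, at -0.59 and -0.69.

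Among 12 further hypoxia targets, 1 rose (3.69% of all genes) and 1 fell (3.63%) in LQ, and none passed in Ex4 (0% of all genes). KDM3A, a histone H3 lysine 9 demethylase, had 8816.2, 8002.9 and 10299.1 in LQ, 6436.4, 7756.7 and 9066.2 in Ex4, and 6342.5, 4646.6 and 4426.2 in WT. Every mutant array was above every WT array, although Ex4 replicate 1 was nearly level with WT replicate 1. KDM3A rose by 0.82 ± 0.19 on the log2 scale in LQ, or 1.77-fold (adjusted p = 0.035), and had 0.60 ± 0.19 in Ex4 (adjusted p = 0.11). The other KDM3A probe set was too dim to be tested and differed from WT by 0.33 in LQ and -0.61 in Ex4. With the KDM3A sets averaged the change was 0.57 in LQ and -0.01 in Ex4 (adjusted p = 0.33 and 0.99, limma). CA12, a membrane carbonic anhydrase that disposes of acid, had 517.6, 574.7 and 560.8 in LQ, 653.3, 867.2 and 608 in Ex4, and 1421.9, 1550.6 and 933.9 in WT. The 3 groups did not overlap, with LQ lowest and WT highest. CA12 fell by 1.19 ± 0.28 in LQ, or 0.44-fold (adjusted p = 0.037), and had -0.85 ± 0.28 in Ex4 (adjusted p = 0.11). Its probe set is also of the shared kind, and its other tested sets gave -1.15, -0.62, -0.25 and 0.59 in LQ, none passing.

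VEGFA, the growth factor for blood vessels, had 12261.7, 10974.3 and 13772.1 in LQ, 12646.8, 13310.1 and 13407.3 in Ex4, and 10227.6, 12580.3 and 10788.4 in WT. The Ex4 arrays were all just above the WT arrays and the LQ arrays overlapped them, with changes of 0.23 ± 0.15 in Ex4 and 0.14 ± 0.15 in LQ (adjusted p = 0.34 and 0.56). Its dimmer probe sets all pointed the other way in Ex4, at -0.41, -0.49 and -0.77, none passing. BNIP3 and BNIP3L, receptors that mark mitochondria for removal, had 0.04 and 0.11 in LQ and 0.28 and 0.37 in Ex4. The collagen prolyl hydroxylases P4HA1 and P4HA2 differed in sign, at 0.06 and -0.52 in LQ and 0.28 and -0.29 in Ex4. MXI1, a MYC antagonist, had -0.54 ± 0.18 in LQ (adjusted p = 0.076), with all LQ arrays below WT. NDRG1, ADM, DDIT4 and ANKRD37 had changes between -0.28 and 0.27 in LQ and between -0.24 and 0.39 in Ex4.

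The 6 regulators gave no call in either mutant (7.32% of all genes in LQ and 0% in Ex4), but held several of the larger differences. HIF1A had 26971.3, 30085.1 and 29595.3 in LQ, 30804.5, 32464.3 and 42656 in Ex4, and 26685.6, 15814.8 and 17376.9 in WT. All mutant arrays were above all WT arrays, with LQ replicate 1 barely above WT replicate 1, and the change was 0.57 ± 0.20 in LQ and 0.85 ± 0.20 in Ex4 (adjusted p = 0.092 and 0.077). EPAS1, which encodes HIF-2 alpha, went the other way, with 2795.6, 3098.8 and 2834.8 in LQ, 4308.8, 2435.3 and 2930.9 in Ex4, and 4156.8, 5278.8 and 5440.5 in WT. The LQ arrays were all below WT, Ex4 replicate 1 was inside the WT range, and the change was -0.76 ± 0.22 in LQ and -0.65 ± 0.22 in Ex4 (adjusted p = 0.056 and 0.11). ARNT, the common partner of both, had 967.6, 968 and 1353.2 in LQ, 969.7, 1255.2 and 993.5 in Ex4, and 1313.8, 1216.6 and 1172.2 in WT, with overlapping groups. Its change was -0.19 ± 0.24 in LQ and -0.21 ± 0.24 in Ex4 (adjusted p = 0.63 and 0.61).

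VHL, the substrate receptor that removes HIF alpha, had 1516.1, 917.8 and 583.1 in LQ, 454.7, 343.9 and 669.1 in Ex4, and 1248.2, 1614.1 and 1145.7 in WT. All Ex4 arrays were below all WT arrays, while the LQ arrays spread across both. The change was -0.49 ± 0.37 in LQ and -1.46 ± 0.37 in Ex4, the largest in size of the Ex4 changes among the 39 (adjusted p = 0.39 and 0.08). The other VHL probe set was too dim to be tested and differed from WT by -0.73 in LQ and -0.24 in Ex4. With the VHL sets averaged the Ex4 change was -0.85 (adjusted p = 0.18, limma). EGLN3, an oxygen-sensing prolyl hydroxylase that HIF induces, had 195.1, 284.9 and 174.8 in LQ, 324.4, 261.1 and 353.7 in Ex4, and 385.4, 543.8 and 383.2 in WT. All mutant arrays were below WT, but the gene was dim, lying under the array median on 3 LQ, 2 Ex4 and 2 WT arrays. Its change was -0.96 ± 0.41 in LQ and -0.45 ± 0.41 in Ex4 (adjusted p = 0.15 and 0.51). EGLN1, the main prolyl hydroxylase, had 0.30 in LQ and 0.35 in Ex4, without passing.

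LQ and Ex4 were also compared directly. No gene of the 39 passed, as for all genes (0% above and 0% below; 4.19% at an unadjusted p under 0.05). VHL was the 1 gene of the 39 with an unadjusted p under 0.05, at 0.96 ± 0.37 in LQ against Ex4 (adjusted p = 1, limma). NDRG1 lay above in LQ without overlap (5.91% of all genes), and PFKFB4, CA12, P4HA1 and HIF1A lay below (6.47%). A difference between the mutants of VHL or of any other member was thus not shown.

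Other probe sets of the same genes did not always repeat the brightest. Of 20 genes with more than 1 tested probe set, 12 had sets of opposite sign in LQ against WT. The 40 dimmer sets had a median of -0.31 and 32 were below 0, against a median of -0.07 for the 39 brightest. Over all 32768 tested probe sets the median was -0.15, with 13358 above 0. Dim genes had lower changes in general, with a median of -0.6 over the dimmest 4673 genes, against 0.15 over the brightest 4673. Some of the 40 were dim only beside the brightest set of their gene, such as a GAPDH set with 69850.9 to 122697.5. The part of brightness in the lower values of the 40 was not tested. Over all 79 sets, 1 passed upward (3.09% of all tested probe sets) and 5 downward (3.72%). The downward ones were those of ALDOC and CA12 and a dimmer set each of EPAS1 (-1.87 ± 0.45, adjusted p = 0.036), PGK1 (-0.77 ± 0.19, adjusted p = 0.037) and BNIP3L (-0.84 ± 0.18, adjusted p = 0.029). The EPAS1 set had 328, 350.4 and 371.4 in LQ and 1010.1, 1425.4 and 1609.4 in WT, in the same direction as the bright set. The BNIP3L set had 2613.5, 3006.5 and 3177.1 in LQ and 4631, 5534.7 and 5654.5 in WT, while the brightest BNIP3L set had 0.11 ± 0.21 (adjusted p = 0.76). The 3 dimmer VEGFA sets gave -0.35, -0.29 and -0.85. None of the 79 passed in Ex4 against WT or in LQ against Ex4, where 0.0122% and 0.0061% of all probe sets passed in either direction.

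**Figure D4:**
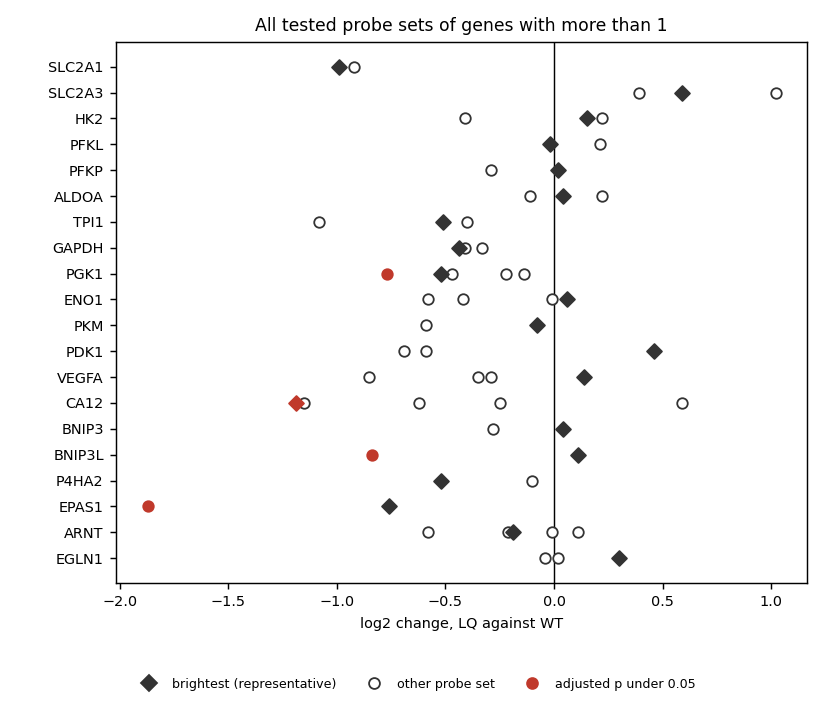
Log2 change in LQ against WT of every tested probe set of the 20 genes with more than 1, with the brightest as a diamond, the others as circles and those past the test in red. PDK1, VEGFA and BNIP3L have sets on both sides of 0, and both sets of EPAS1 and of SLC2A1 lie to the left.

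The scaling of the arrays moved all of these values. As deposited, the arrays share a trimmed mean. Centring every array on its median instead shifted the median of all genes to 0.49 in LQ and 0.41 in Ex4, and that of the 39 genes to 0.51 and 0.33. Under centring 8 of the 39 rose in LQ and none fell, while 30.2% of all genes passed in either direction. The 8 included KDM3A, HIF1A and PDK1, and ALDOC and CA12 had -0.71 and -0.60 with adjusted p of 0.11 and 0.18. Quantile normalization left KDM3A at 0.66 (adjusted p = 0.065), ALDOC at -0.97 (adjusted p = 0.086) and CA12 at -0.85 (adjusted p = 0.12). In LQ against WT, 5 genes were below 0 under all 3 scalings, namely SLC2A1, ALDOC, CA12, EPAS1 and EGLN3, 13 were above 0 under all 3, and 21 were mixed. In Ex4 against WT, 14 were above 0 under all 3, 19 were mixed and 6 were below 0 under all 3, namely SLC2A1, PFKM, ALDOC, CA12, EPAS1 and VHL. GAPDH, PGK1, TPI1 and LDHA were below 0 as deposited and after quantile normalization, and above 0 after centring.

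**Figure D5:**
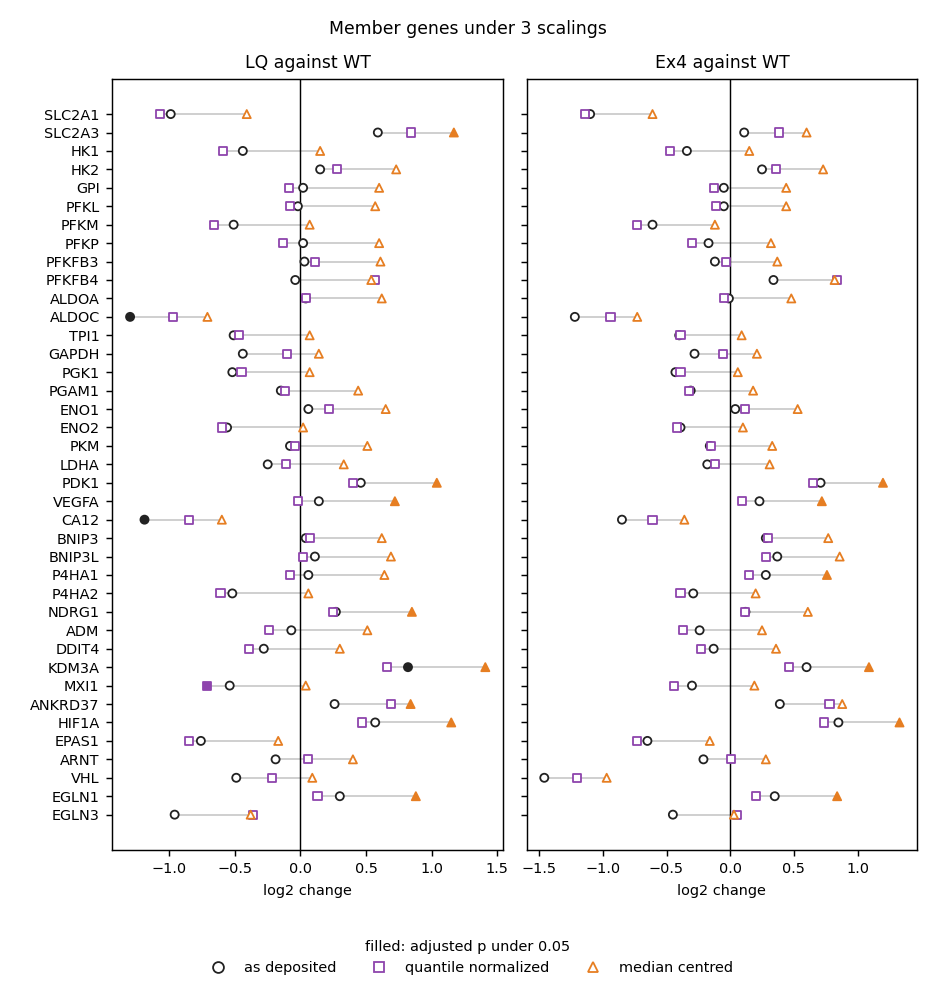
Log2 change of the 39 genes in LQ against WT (left) and Ex4 against WT (right) under 3 scalings, joined by a grey line, filled where the adjusted p was under 0.05. Centring moves every gene to the right of its deposited value, and SLC2A1, ALDOC, CA12 and EPAS1 stay left of 0 in both panels.

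Among 86 tested genes of 6 related lists, 5 passed in LQ against WT, where 7.32% of all genes did, and none passed in Ex4 against WT, where 0% of all genes did. Of 14 other glycolysis enzymes and glucose transporters tested, 2 fell, SLC2A8 (-0.90 ± 0.23) and SLC2A12 (-1.13 ± 0.28, adjusted p = 0.041 each), both transporters. Of 13 genes for pyruvate and lactate handling none passed, and PDHX, a part of pyruvate dehydrogenase, had 0.62 ± 0.20 and DLD, a shared subunit of it, -0.35 ± 0.14 (adjusted p = 0.07 and 0.12). Of 8 pentose phosphate genes 1 rose, RPE, the ribulose phosphate epimerase, at 1.11 ± 0.20 (adjusted p = 0.023), and TKT, the transketolase, had 0.74 ± 0.22 (adjusted p = 0.058). Of 26 other HIF targets 1 rose, the kinase RIOK3, at 0.75 ± 0.19 (adjusted p = 0.044), while EPO, erythropoietin, had -1.53 ± 0.43 (adjusted p = 0.052). Of 16 regulators of the HIF pathway none passed, with the ubiquitin ligase SIAH1 at 0.58 ± 0.17 and CITED2, which competes with HIF for its coactivator, at 0.58 ± 0.21 (adjusted p = 0.062 and 0.096). In the PERK-ATF4 branch of the unfolded protein response, 1 of 9 rose, ATF3, at 0.89 ± 0.16 (adjusted p = 0.02), and TRIB3 had 0.71 ± 0.24 (adjusted p = 0.087). ATF3 had 69932.2, 68504.3 and 68679.1 in LQ and 30349.7, 43960.8 and 38325.4 in WT. The medians of these 6 lists in LQ lay between -0.11 and 0.19, against -0.09 over all genes.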

How the data were processed

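For each of 9 arrays the authors deposited a linear intensity per probe set, and per the submitters' processing notes MAS5 was the software, with no version named. All else was computed from that table. Platform annotation named the genes, and RefSeq gene identifiers updated the symbols: 41091 probe sets had 1 symbol, 1801 several and 11721 none, and 62 control sets were left out. Values were used as log2(intensity + 16), and those whose mean fell below percentile 40 (7.89) were not tested. One limma model (3.58.1, R 4.3.3) with a trended variance prior covered the 9 arrays, with group as its single factor, and was tested on simulated data. Detection calls were not used. Precision is limited by the number of arrays. The 40 genes and the other lists were chosen with earlier results of these data known. Per-array values are given for members past the threshold, for the 6 largest changes in each comparison and for 12 set genes, and 2 genes are named from each other list. Alternatives were other pseudocounts, scalings, filters and variance models, other probe set rules, a replicate block, and each array left out.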

Additional observations from a re-analysis of the deposited data

How the results depend on the processing

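Pseudocounts of 1 and 64 left the same 3 calls in LQ against WT (6.83% and 8.45% of all genes), while other settings changed their number. Calls among the 39 genes in LQ against WT are given here with the share of all genes called: 1 with quantile normalization (MXI1; 3.41%), 8 with median centring (30.2%), 1 without the filter on low values (KDM3A; 3.34%), 5 with the filter at percentile 60 (10.1%), 0 with no variance trend (1.24%), 5 when just the LQ and WT arrays were fitted (12.9%), 15 with array weights (28.6%) and 1 with the probe sets of each gene averaged (ALDOC; 4.31%). Leaving out each array in turn gave 0 to 11 calls in LQ against WT. It was 0 without any single LQ array, without WT replicate 2 or without WT replicate 3 (0.0214% to 0.15% of all genes), 11 without WT replicate 1 (17.8%) and 6 without Ex4 replicate 1 (14%). In Ex4 against WT there were 6 calls with median centring (19.3% of all genes), 8 with array weights (18.3%), and 0 to 9 with an array left out, 9 without Ex4 replicate 1 (13.8%) and 9 without WT replicate 1 (13.7%). LQ against Ex4 gave 0 under each of these settings. The median of the 39 genes moved to 0.51 (LQ) and 0.33 (Ex4) with median centring and to -0.29 (LQ) and -0.30 (Ex4) with averaged probe sets, and lay between -0.22 and 0.05 in LQ with an array left out. Among all probe sets, LQ against WT gave 2231 calls, 442 with no variance trend, 1154 with quantile normalization, 4128 when just the LQ and WT arrays were fitted, 8452 with median centring, of which 7934 were higher, and 8 to 4985 with an array left out. The causes were not tested.

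The labels give no pairing by replicate number. Deviations of same-numbered arrays correlated at 0.173, 0.104 and 0.074 between LQ and WT, where each array correlated best with its own number, a hint from the data and not from the design. They correlated at -0.071, 0.01 and -0.083 between Ex4 and WT, so the numbers were not used as pairs. With the replicate number as a block 2 genes passed in LQ against WT (CA12 and KDM3A; 7.24% of all genes), and ALDOC had an adjusted p of 0.053 (limma). No gene of the 39 was called in the direction opposite to its deposited-scale value under any of these settings, and ALDOC, CA12 and KDM3A kept their signs in LQ against WT. With 3 arrays a group, and EGLN3 and PFKFB4 below the array median on some arrays, signal over background limits the detection of changes in dim genes.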
